A study of Saccharomyces cerevisiae with 8 samples.

Results

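The genes described here encode proteins of the mitochondrial ribosome of budding yeast, Saccharomyces cerevisiae. They were chosen by name: nuclear genes whose standard name is MRPL, MRPS, MRP or RSM followed by a number, with MRP8 left out. The rule gave 66 of the 6256 genes on the array, 38 of the large subunit and 28 of the small subunit. By their ribosomal protein synonyms in RefSeq, 41 have a bacterial counterpart and 24 are specific to mitochondrial ribosomes. RSM22 carries no such synonym.

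The study set total RNA of 7 aneuploid strains against RNA of wild-type cells on Agilent arrays read in 2 colours. In aneuploid cells some chromosomes differ from the others in copy number. Each strain (A2, A3, A9 and A10, and further A13, A14 and A15) gave 1 array, with its RNA in Cy5 and the wild-type sample WT2 in Cy3. An eighth array held another wild-type sample, WT1, over the same WT2. All cultures were in mid-logarithmic growth. The labels used here name the strains and say nothing of their karyotype, ploidy, mating type or parent, or of whether samples came from separate cultures. P-values therefore measure the spread between these samples, which may be partly technical. Dyes were never exchanged, so a dye effect on a gene cannot be told apart from a difference from WT2. It is shared by the WT1 array.

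The mitochondrial ribosome makes the few proteins that the mitochondrial genome encodes, most of them membrane subunits of the respiratory chain and of ATP synthase. Its RNAs and the small subunit protein Var1 come from the mitochondrial genome, and its other proteins are made in the cytosol from nuclear genes and imported. Many of the mRNAs are bound by Puf3, an RNA-binding protein that sets their stability and translation according to the carbon source.

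All 66 genes were well above background in both channels on all 8 arrays, and 0 were saturated. The standard deviation between the 2 spots of a gene ranged from 0.0521 to 0.0957 on the log2 scale over the arrays. All ratios are log2 of the sample over WT2, normalized within each array. Their 0 thus lies near the middle of all genes on the array and is no absolute level of WT2. The median uncentred log2 ratio of all nuclear genes tested lay between -0.019 in A9 and 0.017 in A14. Because an additional chromosome raises most of its genes together, each ratio is also given relative to the gene's own chromosome. For this the median of the chromosome's other genes on the same array was subtracted, giving a chromosome-centred log2 ratio, whose 0 is the level of those other genes and not that of WT2. The 8 arrays shared 1 slide. Its row 1 held A2, A3, A9 and A10, and its row 2 held A13, A14, A15 and WT1. In bulk RNA, fewer cells of a kind and less RNA per cell cannot be told apart.

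Relative to the other genes of their chromosomes, the 66 genes were low in A2 and A3, high in A10, A15, A9 and A13, and level in A14. In A2 the median chromosome-centred log2 ratio was -0.33, or 0.794 times the ratio of those other genes, and 61 of the 66 genes were below 0. Of all genes on that array, 50.4% were below 0. Past a log2 ratio of -0.3, which served here as the limit of size for single arrays, lay 36 of the 66 genes of A2, against 17.5% of all genes. In A3 the median was -0.26, or 0.833 times, with 60 genes below 0 (50.4% of all genes) and 25 below -0.3 (17.3% of all genes). No member of either strain was above 0.3, where 14.9% of all genes of A2 and 11.7% of A3 were.

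A10 had the highest chromosome-centred median, 0.29, or 1.22 times the ratio of the other genes. In it 52 of 66 genes were above 0 (50.2% of all genes) and 32 were above 0.3 (27.1% of all genes), while 2 were below -0.3 (25.8%). In A15 the median was 0.16 and 55 genes were above 0 (50.3% of all genes), 27 of them above 0.3 (14.7% of all genes) and 0 members below -0.3 (17.2%). A9 and A13 were closer to 0. The A9 median was 0.11, with 51 genes above 0 (50.2% of all genes) and 15 above 0.3 (16.1%), and 1 below -0.3 (16.8%). The A13 median was 0.10, with 50 genes above 0 (50.2% of all genes) and 6 above 0.3 (6.61%), and 2 below -0.3 (7.48%). Without the loess step these medians moved by over 1.5 times in A9, to 0.21, and in A15, to 0.26.

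A14 had a median of -0.023, with 40 genes below 0 (50% of all genes), 1 above 0.3 (10.6%) and 0 below -0.3 (9.39%). Without the loess step its median was 0.0072, on the other side of 0. On the WT1 array the median was 0.0025, with 34 genes above 0 (50% of all genes) and 32 below. There 3 genes lay above 0.3 (3.54% of all genes) and 3 below -0.3 (2.46%). The mean of the 7 strain medians was 0.0043 ± 0.228 (SD, n = 7), so the strains scattered on both sides of 0. Over WT2 itself, without centring, the members' medians were -0.34 in A2, -0.30 in A3, 0.087 in A9, 0.18 in A10, 0.10 in A13, -0.047 in A14 and 0.19 in A15, and -0.0043 in WT1. A15 and not A10 was then the highest. Slide row 1 held both the lowest medians, in A2 and A3, and the highest, in A10.

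**Figure D1:**
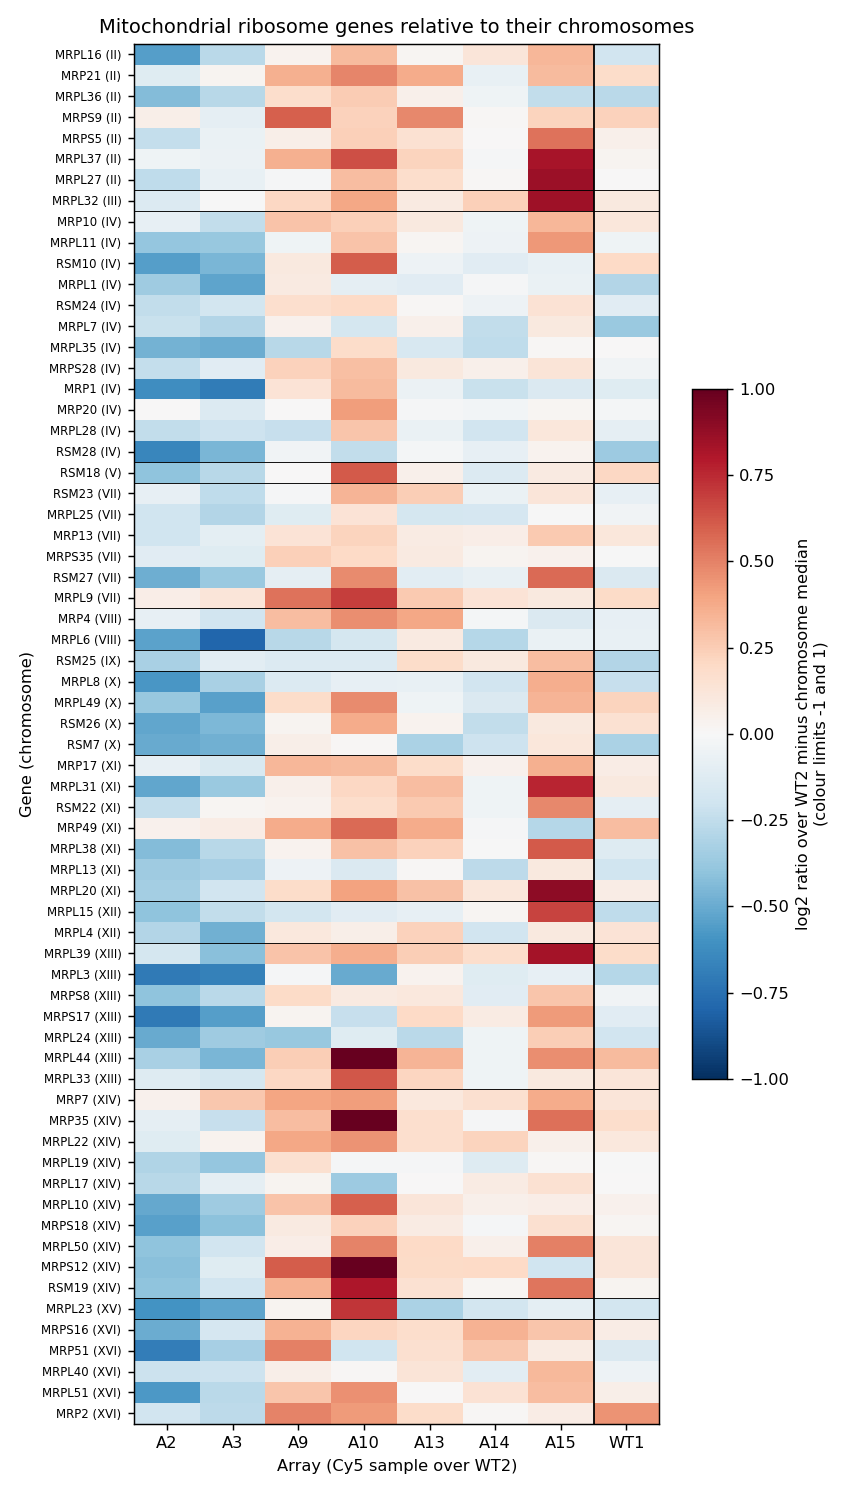
Chromosome-centred log2 ratios over WT2 of the 66 mitochondrial ribosome genes (rows, ordered by chromosome) on the 8 arrays (columns). Blue is lower and red higher than the chromosome's other genes, with colours ending at -1 and 1. The A2 and A3 columns are mostly blue, with 61 and 60 genes below 0, and the A10 and A15 columns mostly red, with 52 and 55 above 0.

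The order of the chromosome-centred medians was the same with WT1 in the place of WT2. Relative to WT1, the median difference was -0.30 in A2, with 64 of 66 genes lower (50.1% of all genes), and -0.23 in A3, with 61 lower (51.2%). It was 0.27 in A10, with 57 higher (50.8% of all genes), and 0.21 in A15, with 53 higher (50.1%). A9 followed at 0.14 with 51 higher (50.2%) and A13 at 0.09 with 49 higher (50.4%), and A14 lay at -0.0051 with 34 lower (49.5%). Each of these differences rests on 1 array a strain and the same WT1 array, so none has a replicate check. The spread of the genes within an array, between an SD of 0.137 in A14 and 0.329 in A10, was wider than most gaps between neighbouring strain medians. This spread is of single genes and is no error of a median. On the WT1 array it was 0.175, against 0.155 over all genes.

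The Cy5 signal itself differed between the arrays. Its median over the 66 genes was 515 in A2, the lowest, and 1892 in A10, the highest, against a local background of 36 and 37. In A15, whose members were high, it was 731. Over all genes the median signal was 577 in A2, 570 in A15 and 1596 in A10. Its part in the medians was not tested. Genes of cell type also differed between the strains. The 6 genes specific to mating type a had median chromosome-centred log2 ratios of -4.37 in A9 and -4.50 in A10, -1.77 in A15, -1.21 in A2 and -1.20 in A3, and -0.20 in A13 and 0.07 in A14. The 4 genes specific to mating type alpha had a median of 5.02 in A9 and 0.49 in A10, and between -0.12 and 0.07 in the other strains. Of these, MF(ALPHA)1 was well above background in both channels only in A2 and A9. MF(ALPHA)2 was so only in A9, A10, A13 and WT1. The 5 genes specific to haploid cells had -3.48 in A10, -0.77 in A9, -0.67 in A15, -0.44 in A2 and -0.39 in A3, and -0.030 in A13 and 0.044 in A14. On the WT1 array the a, alpha and haploid genes had medians of 0.05, 0.02 and 0.13. The part of cell type in the members' values was not tested.

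On chromosomes that were raised in no strain, the directions in A2, A3 and A10 were also seen without centring, and those in A9 and A15 were not. The other genes of these chromosomes had uncentred medians below 0 in every strain. No strain had a raised median on chromosomes IV, V, VI, VII, VIII or XIV, where raised means at least 0.3 above WT2 over the genes that are no members. These chromosomes hold 31 of the 66 genes, most of them on IV (12), XIV (10) and VII (6). Without centring, all 31 were below 0 in A2, as were 60.3% of the other genes of these chromosomes. The median log2 ratio of the 31 was -0.33, against -0.064 for those other genes. In A3, 29 of the 31 were below 0 (59.3% of the other genes), with a median of -0.31 against -0.057. In A10 the 31 genes had a median of 0.07 against -0.17, and 22 were above 0 (35% of the other genes). In A9 the 31 genes had a median of -0.021, with 17 below 0 (68% of the other genes). In A15 they had -0.0083, with 16 below 0 (65.6% of the other genes), so neither median was above the array's 0. The other genes of these chromosomes had -0.13 in A9 and -0.098 in A15, which left members higher than them by 0.11 and 0.09. In A13 the members had 0.017 against -0.040, and in A14 -0.048 against -0.017.

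Chromosome-centred, 29 of the 66 (43.9%) were below 0 in A2 and A3 and above 0 in A9, A10, A13 and A15, as were 2.66% of the 6055 nuclear genes tested. A2 was the lowest strain for 42 members (13.4% of all genes) and A3 for 22 (9.69%). A10 and A15 were each the highest strain for 28 members, against 30.1% and 20.6% of all genes. The sign pattern is that of the members' own medians, so a higher share among members was built in. All these ratios also share WT2, so the shares describe the arrays and carry no test. Over the 7 strains the chromosome-centred range of a member was 0.765 in the median, between 0.359 and 1.54, and 0.653 in the median of all genes.

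Chromosomes II and XII were raised in both A2 and A3, and I in A3 as well. A3 was slightly above A2, with a median difference of 0.084 (44 of 66 genes higher) and an SD of 0.151 over the genes. It ran from -0.26 in MRPL6 to 0.36 in MRP51, both of which were well below WT2 in A2. Over all genes the difference between A3 and A2 had an SD of 0.177. Over WT2 that SD was 0.346 in A2, 0.318 in A3 and 0.155 in WT1. A2 and A3 were thus alike, and the labels do not say whether they are related. The means and fits over strains count A2 and A3 as separate replicates, so standard errors and p-values may be too small.

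The large and the small subunit took similar medians. In A2 they were -0.33 for the 38 large subunit genes and -0.36 for the 28 small subunit genes, and in A3 -0.28 and -0.22. In A10 they were 0.30 and 0.24, in A9 0.06 and 0.15, in A13 0.07 and 0.13, and in A14 -0.035 and -0.013. A15 had medians of 0.20 and 0.15, and the large subunit genes spread wider there, with an SD of 0.331 against 0.208. The subunits thus differed by at most 0.09 within an array, less than the SD of either over its genes. That SD is the spread of single genes and no error of a median, and the difference was not tested.

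**Figure D2:**
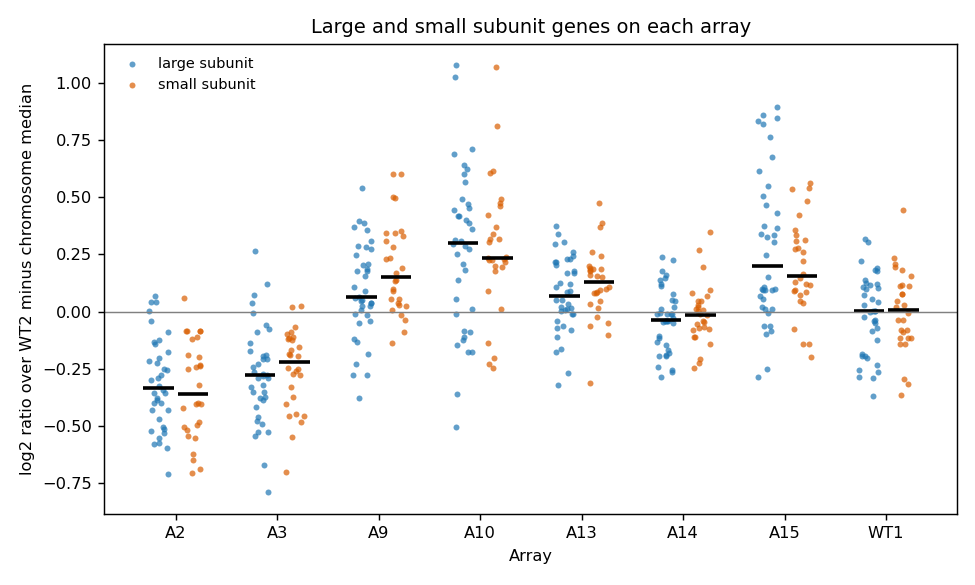
Chromosome-centred log2 ratios over WT2 of each gene of the large subunit (blue, 38 genes) and the small subunit (orange, 28 genes) on each array, with the median of each as a bar. Both bars lie below 0 in A2 and A3 and above 0 in A9, A10, A13 and A15.

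Proteins with a bacterial counterpart and those found only in mitochondria had medians of the same sign in 7 of 7 strains. Their medians were -0.38 and -0.32 in A2, and -0.27 and -0.25 in A3. They were 0.31 and 0.23 in A10, 0.18 and 0.025 in A9, and 0.16 and 0.15 in A15. Averaged over strains they were 0.016 ± 0.254 and -0.026 ± 0.20 (SD, n = 7).

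In the large subunit, MRP7 and MRPL9 were the only members above their chromosomes in every strain, including A2 and A3. MRP7, the counterpart of bacterial L27, had chromosome-centred log2 ratios of 0.04 in A2, 0.27 in A3, 0.40 in A9, 0.42 in A10, 0.11 in A13, 0.16 in A14 and 0.37 in A15, and 0.12 in WT1. MRPL9, the counterpart of bacterial L3, had 0.07, 0.12, 0.54, 0.69, 0.26, 0.14 and 0.09 in the same order, and 0.19 in WT1. MRP7 was below its own value in WT1 in A2 and A13, and MRPL9 in A2, A3, A14 and A15. Genes above 0 in 7 of 7 strains made up 2 of 66 members and 7.76% of all genes, and genes below 0 in 7 of 7 made up 0 members and 8.72% of all genes.

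MRPL3 and MRPL6, also of the large subunit, were the lowest members of A2 and A3. MRPL3 had -0.71 in A2, -0.67 in A3, -0.01 in A9, -0.51 in A10, 0.03 in A13, -0.12 in A14 and -0.09 in A15. It was the lowest member in A2 and also in A10, where most members were high, and it stood at -0.28 in WT1. MRPL6, the counterpart of bacterial L6, had -0.53 in A2, -0.79 in A3, -0.28 in A9, -0.18 in A10, 0.09 in A13, -0.29 in A14, -0.06 in A15 and -0.07 in WT1. It was the lowest member in A3 and A14.

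MRPL44, a large subunit protein specific to mitochondria, had the widest range over the strains. Its values were -0.32 in A2, -0.46 in A3, 0.25 in A9, 1.08 in A10, 0.34 in A13, -0.05 in A14 and 0.47 in A15. WT1 lay at 0.32, above A9, A14, A2 and A3, so a high value of this gene was not limited to the aneuploid strains. MRP35, another large subunit gene, was similarly high in A10 at 1.03 and reached 0.55 in A15, with -0.09 in A2, -0.23 in A3 and 0.18 in WT1.

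The highest members of A15 were of the large subunit. MRPL20 had 0.90 there, MRPL27 0.86, MRPL32 0.85, MRPL39 0.83 and MRPL37 0.82, where the highest of the other strains had 0.40, 0.31, 0.39, 0.36 and 0.64 for these genes. MRPL32, the counterpart of bacterial L32, is matured in the organelle by the m-AAA protease. MRPL27 had -0.26 in A2, -0.08 in A3, -0.01 in A9, 0.31 in A10, 0.18 in A13, 0.01 in A14 and 0.0040 in WT1. MRPL37 had -0.04, -0.06, 0.36, 0.64, 0.22, -0.01 and 0.82 from A2 to A15, and 0.03 in WT1. At the other end of A15 stood MRP49, at -0.29, which had 0.57 in A10 and 0.30 in WT1. In the first 5 of these genes A15 lay above WT1 and the other 6 strains.

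In the small subunit, MRPS12, the counterpart of the bacterial decoding protein S12, was the highest member in A9. Its values were -0.42 in A2, -0.12 in A3, 0.60 in A9, 1.07 in A10, 0.19 in A13, 0.20 in A14, -0.20 in A15 and 0.12 in WT1. Its neighbour on chromosome XIV is RSM19, the counterpart of bacterial S19, chosen here after its values were seen because these are the only 2 members next to each other. RSM19 had -0.40 in A2, -0.19 in A3, 0.35 in A9, 0.81 in A10, 0.15 in A13, 0.02 in A14 and 0.54 in A15. The neighbours were thus both high in A10 and lay on opposite sides of 0 in A15.

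**Figure D3:**
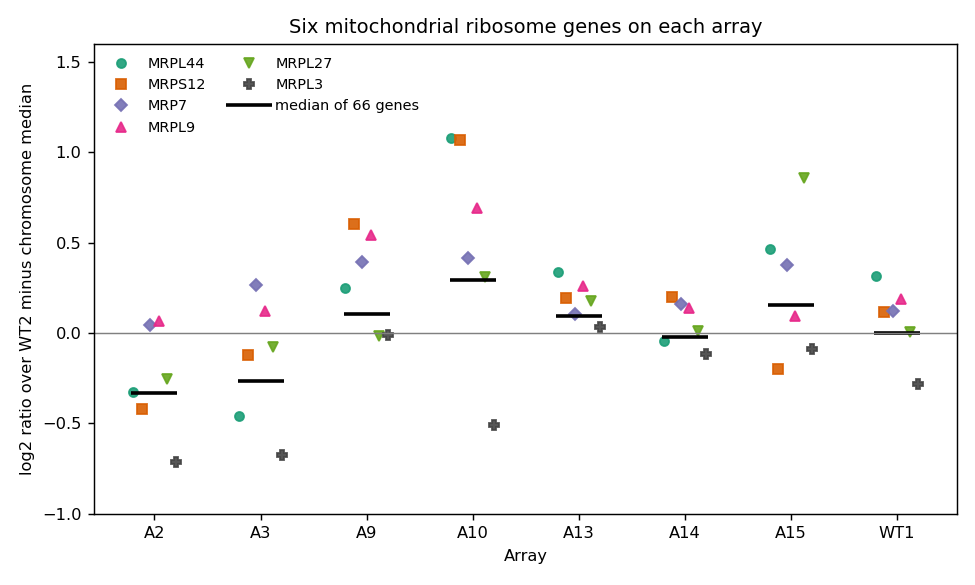
Chromosome-centred log2 ratios over WT2 of 6 mitochondrial ribosome genes on each array, with the median of all 66 as a bar. MRP7 and MRPL9 lie above 0 in every strain, MRPL44 and MRPS12 reach 1.08 and 1.07 in A10, MRPL27 is high in A15 and MRPL3 is low in A2, A3 and A10.

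MRPS17 and MRP51, also of the small subunit, were among the lowest members of A2. MRPS17, the counterpart of bacterial S17, had -0.71 in A2, -0.55 in A3, 0.03 in A9, -0.23 in A10, 0.20 in A13, 0.08 in A14 and 0.42 in A15, and -0.11 in WT1. MRP51 had -0.69 in A2, -0.33 in A3, 0.50 in A9, -0.20 in A10, 0.16 in A13, 0.27 in A14 and 0.08 in A15, and -0.14 in WT1. Both were below 0 in A10, against the direction of 52 members. MRP1, a small subunit protein related in sequence to manganese superoxide dismutase, had -0.62 in A2 and -0.70 in A3, its lowest values, and 0.32 in A10.

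The smallest range belonged to MRPS35, with values between -0.12 in A3 and 0.24 in A9. MRPL25, a large subunit protein also known as Afo1, had -0.20 in A2, -0.29 in A3, -0.12 in A9, 0.14 in A10, -0.18 in A13, -0.17 in A14 and -0.01 in A15, and -0.04 in WT1. It was above 0 only in A10.

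On raised chromosomes the members were above WT2, as were most other genes there. The threshold of 0.3 marked 18 of 112 pairs of a strain and a chromosome, and 16 of these held members. They covered 35 different genes, giving 72 pairs of a gene and a strain, and all 72 uncentred log2 ratios were above 0. Of the other genes on the same chromosomes, which were chosen for their high medians, 92.1% were above 0 in these strains. In A9, the 19 members on chromosomes II, XIII and XVI had a median of 0.88, and the other 47 had -0.032. In A15, the 18 on II, X and XI had 0.82 and the other 48 had 0.029. The 11 in A10 on III, XI, XII and XV had 0.93 against 0.09, and the 6 in A14 on IX and XVI had 0.89 against -0.048.

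A2 and A3 differed from these strains in the level reached. The 9 members on chromosomes II and XII had a median of 0.41 in A2 and 0.64 in A3, and the other 57 had -0.41 and -0.32. The gap between raised and other chromosomes was 0.82 in A2 and 0.96 in A3, where genes that are no members had gaps of 0.68 and 0.64. In the other strains with members on raised chromosomes the gap was between 0.79 in A15 and 0.94 in A14, against 0.60 and 0.77 for non-members. In A2 and A3 both sets of members lay lower than in the other strains with such chromosomes.

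Set against the chromosome's other genes, 1 of 9 members exceeded the chromosome median in A2 and 1 of 9 in A3. In A9 it was 16 of 19, in A10 9 of 11, in A14 5 of 6 and in A15 16 of 18. Chromosome II, with 7 members, was raised in 4 strains. Its other genes had medians of 0.67 in A2, 0.73 in A3, 0.64 in A9 and 0.49 in A15, and its members had 0.43, 0.66, 0.81 and 0.83. On this chromosome MRPS9, the counterpart of bacterial S9, had log2 ratios of 0.73 in A2, 0.64 in A3, 1.24 in A9 and 0.71 in A15. It had 0.09 in A10, 0.75 in A13, -0.0088 in A14 and 0.23 in WT1.

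Members on chromosome XVI, raised in A9 and A14, had medians of 0.89 and 0.90 there, where its other genes had 0.55 and 0.75. On chromosome XI the 7 members had a median of 0.93 in A10 and 1.12 in A15, above the 0.64 that the other genes had in both. MRPL23, the counterpart of bacterial L13 and the only member on chromosome XV, had a log2 ratio of 1.29 in A10, the one strain with XV raised. Its other strains lay between -0.65 in A2 and -0.026 in A9, and WT1 at -0.18. A13 had no member on a chromosome past the threshold. Chromosomes II, VIII and XI passed a lower threshold of 0.2 in it, and their 16 members had a median of 0.49 against 0.019 for the other 50.

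**Figure D4:**
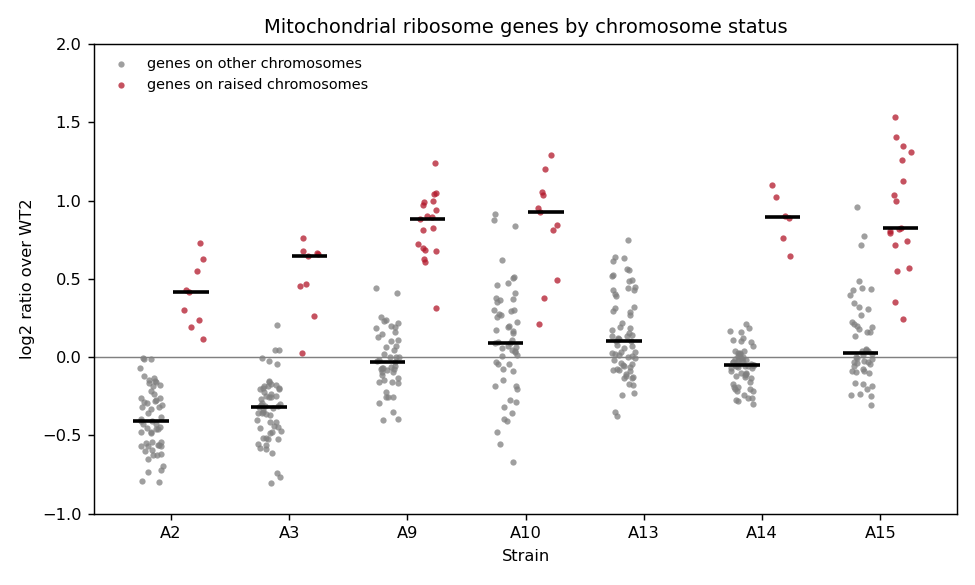
Log2 ratios over WT2, without chromosome centring, of the 66 genes in each strain, split by whether the gene's chromosome was raised in that strain (red) or not (grey), with medians as bars. Every red point lies above 0, as do 92.1% of other genes on those chromosomes; the grey medians are -0.41 in A2 and -0.32 in A3 and lie between -0.048 and 0.10 in the other strains.

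No change common to the 7 strains was found against WT1. The limma model compared the mean of the 7 strains with the lone WT1 array, which was assumed to vary as the strains do. After Benjamini-Hochberg adjustment it called 0 of 66 members higher or lower, and 0% of all genes, at an adjusted p of 0.05. With chromosome centring it also called 0 members and 0% of all genes. At an unadjusted p under 0.05 it had 0 members, and of all genes 7 higher and 25 lower, or 14 and 38 with centring. The standard error of a member's difference was 0.354 in the median, or 0.277 with centring, so shifts the size of the strain medians were not detectable. The members' median difference with centring was 0.046 and that of all genes 0.0020.

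The 7 log2 ratios over WT2, a comparison with no measure of how wild-type samples vary, were also tested against 0. A2 and A3 counted as 2 of the 7, though their arrays were alike. The limma model called 2 members higher and 0 lower at an adjusted p of 0.05, or 3.03% higher, where it called 2.33% of all genes higher and 3% lower. These were MRP21, the counterpart of bacterial S21, at 0.57 ± 0.124 (SE, n = 7, adjusted p = 0.043), and MRPL37, at 0.65 ± 0.144 (SE, n = 7, adjusted p = 0.043). MRP21 had log2 ratios of 0.55 in A2, 0.76 in A3, 0.99 in A9, 0.35 in A10, 0.64 in A13, -0.089 in A14, 0.81 in A15 and 0.18 in WT1. MRPL37 had 0.63, 0.68, 0.99, 0.50, 0.49, -0.029 and 1.31 from A2 to A15, and 0.03 in WT1.

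Both genes are on chromosome II, raised in A2, A3, A9 and A15, and each was above 0 in 6 of 7 strains. Neither was called once its chromosome was subtracted, with limma adjusted p of 0.174 for MRP21 and 0.155 for MRPL37. Leaving out A2, A3, A9, A13 or A15 also ended both calls, and without A2, A3 or A9 the model called 0 of all genes. Without A10 it called 4 members higher and 1 lower, or 7.58%, and 7.67% of all genes.

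With chromosome centring, limma called 1 member higher and 0 lower against WT2, where it called 5.16% of all genes higher and 6.11% lower. This was MRP7, at 0.25 ± 0.0651 (SE, n = 7, adjusted p = 0.0409), higher in 7 of 7 strains. Leaving out any one strain ended the call, with adjusted p between 0.0531 and 0.109. Against WT1 the limma difference of MRP7 was 0.13 ± 0.184 (SE) with an adjusted p of 1. MRPL9 was at 0.27 against WT2 and was not called by limma (adjusted p = 0.0789).

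Other genes of mitochondrial translation were grouped in lists chosen with earlier results of these data known. The 13 mitochondrial ribosome proteins with names outside the rule had medians close to those of the 66 genes. They had -0.33 in A2, -0.30 in A3, 0.13 in A9, 0.31 in A10, 0.07 in A13, 0.04 in A14 and 0.22 in A15, and -0.038 in WT1. In A2 11 of the 13 were below 0, and in A3 all 13. The list of mitochondrial translation factors gave 12 tested genes. Besides factors of the organelle's translation it holds FMT1, HER2, PET112 and GTF1, whose products modify charged tRNAs. The medians of the 12 genes were -0.18 in A2, -0.24 in A3 and 0.44 in A10. None of the genes of either list was called by limma in either direction.

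The 13 mitochondrial tRNA synthetases, which charge the organelle's tRNAs, had medians of -0.12 in A2, -0.037 in A3 and 0.31 in A10. The 16 activators of single mitochondrial mRNAs lay between -0.088 in A2 and 0.16 in A9. The 15 tested genes of mitochondrial ribosome assembly and rRNA modification lay between -0.095 in A2 and 0.087 in A9. In the centred limma fit against WT2, 3 of the 44 genes tested from these 3 lists were lower (6.82%) and 0 higher, where 6.11% of all genes were lower and 5.16% higher. The lists' share of lower genes was thus near that of all genes. MRM2, which methylates the large mitochondrial rRNA, was at -0.36 ± 0.0519 (SE, n = 7, limma adjusted p = 0.0122). MTF1, the specificity factor of the mitochondrial RNA polymerase, was at -0.38 ± 0.0762 (SE, n = 7, limma adjusted p = 0.0212). MSW1, the mitochondrial tryptophanyl-tRNA synthetase, was at -0.38 ± 0.083 (SE, n = 7, limma adjusted p = 0.0265). All 3 were also below 0 in WT1, at -0.17, -0.28 and -0.25, and none of any list was called against WT1.

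**Figure D5:**
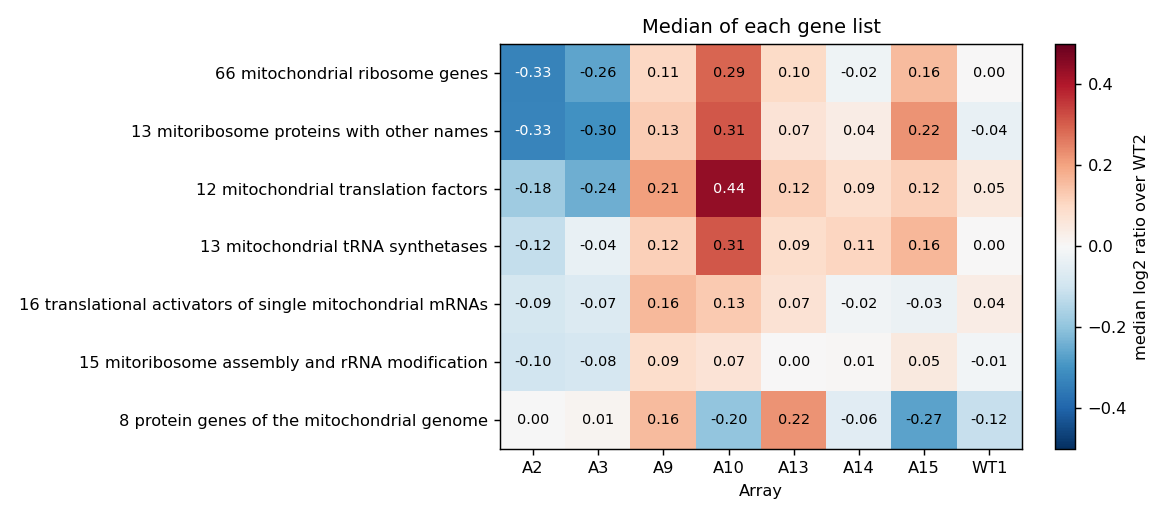
Median log2 ratio over WT2 of the 66 genes and of 6 related lists on each array. All rows are chromosome-centred except the protein genes of the mitochondrial genome, which have no nuclear chromosome; the 66 genes and the 13 proteins with other names run from -0.33 in A2 to 0.29 and 0.31 in A10.

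VAR1, the ribosomal protein gene of the mitochondrial genome, lay between -0.15 and 0.21. Its uncentred log2 ratios were -0.050 in A2, 0.013 in A3, 0.09 in A9, -0.065 in A10, 0.21 in A13, -0.075 in A14, -0.15 in A15 and 0.047 in WT1. On A14 and A15 it was not well above background in both channels. The 8 protein genes of the mitochondrial genome had medians between -0.27 in A15 and 0.22 in A13, and -0.00050 in A2 and -0.20 in A10. The order of the strains differed from that of the nuclear genes. Single genes of the mitochondrial genome spread wider than these medians. OLI1 lay between -1.22 in A2 and 0.14 in A9, with -0.73 in WT1. COB lay between -0.44 in A15 and 1.15 in A9, with -0.0076 in WT1.

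Among 8 regulators, the centred limma fit against WT2 called 1 higher, where it called 5.16% of all genes higher. This was SFP1, an activator of cytosolic ribosomal protein genes, at 0.27 ± 0.0607 (SE, n = 7, limma adjusted p = 0.0278). It was higher in 7 of 7 strains, with -0.019 in WT1. PUF3 had chromosome-centred log2 ratios of -0.31 in A2, -0.27 in A3, 0.00072 in A9 and 0.44 in A10. It had 0.29 in A13, 0.00041 in A14 and 0.05 in A15, and 0.07 in WT1. HAP4, which activates respiratory genes, had -0.27 in A2, -0.18 in A3, 1.0 in A9, 1.55 in A10, 0.87 in A13, 0.29 in A14 and -0.076 in A15, and 0.11 in WT1. HAP4 is on chromosome XI, raised in A10 and A15, and its uncentred log2 ratios there were 2.18 and 0.56.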

How the data were processed

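Total RNA of 7 aneuploid strains and of WT1 was measured on 8 Agilent arrays of 2 colours, each against WT2 in Cy3. Per the file headers, the deposited scanner files hold the median intensity and background intensity of each spot, and log10 ratios of Cy5 over Cy3 made with Feature Extraction 10.5.1.1. The authors' deposited table holds the same ratios on a log2 scale, as a comparison with the scanner files showed. The array design predates the reference table, which was used for names and neighbours only. It named 5756 genes, and 500 kept the name in the files.

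Intensities were corrected with normexp (offset 50) and normalized by loess within each array in limma 3.58.1 (R 4.3.3). The 536 control spots had weight 0, spots marked as outliers were dropped, and the 2 spots of a gene were averaged. A gene was tested if Agilent's scanner software put it well above background, in Cy5 or in Cy3, on 2 arrays or more. This left 6126 of 6256 genes, of which 53 lacked a value on some array. Chromosome centring subtracted, per array, the median of the chromosome's genes that were not members, and genes of the mitochondrial genome were left uncentred. The limma fits compared 7 strains with WT1, or with 0 (WT2), with adjustment over all genes tested. The fits were run on simulated data with known changes, in which arrays were independent and WT1 varied as the strains did. This checked the calculation and not those assumptions. Precision is limited by the number of arrays.

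Members and gene lists were chosen with earlier results of these data known. Genes were drawn from those given by a rule, and not all of these are described. The rule took members of 1 sign in 7 of 7 strains (at most 10 each way) and the 2 highest and 2 lowest of each strain. It took the 6 widest and 4 narrowest ranges, and every member called by a fit or not well above background. It also took the member nearest the median on each raised chromosome. Beyond members it took VAR1, the regulators, and the 2 highest and lowest means of each other list. RSM19, HER2 and PET112 were named outside the rule. The alternatives were Agilent's own ratios, the deposited table, median centring without loess, other filters, the slide row as a block, other thresholds for raised chromosomes, and left-out strains. Leaving out A2 and A3 together was chosen after seeing the data.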

Additional observations from a re-analysis of the deposited data

Results flagged for a closer look

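MRPL15, a large subunit gene on chromosome XII, stood apart in A15. Its chromosome-centred log2 ratio was 0.68 there, while the other 6 strains lay between -0.40 and 0.022. The gap to the nearest strain was 0.609 of the whole range, over the critical value of 0.568 for 7 samples. Of 45 groups of values examined this way, 1 passed, and chance passes about 1 in 20. The groups were 40 members given by the naming rule and 5 medians. Over all 66 members 2 passed (3.03%), against 13.4% of all genes.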

How the results depend on the processing

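No paired analysis was possible because WT1 is a single array. The counts against WT1 were 0 members under every alternative run, with and without centring. Against WT2 without centring, where 2 members were called, median centring without loess called 8, or 12.1%, 7 of them higher, against 18.7% of all genes (511 higher and 634 lower, in place of 143 and 184). Agilent's own ratios called 2 members and 300 and 253 of all genes. The count was 0 without A9 and A10, 0 without A2 and A3, 0 with the slide row as a block and 0 within the slide row of WT1 alone, and leaving out 1 strain gave 0 to 5. With centring, where 1 member was called, median centring without loess called 4, 2 higher and 2 lower, or 6.06% against 24.8% of all genes (639 higher and 881 lower, in place of 316 and 374). It was 0 without A9 and A10, without A2 and A3, with the slide row as a block and within the slide row of WT1 alone, and leaving out 1 strain gave 0 to 1. The gap between members on raised and other chromosomes was larger with Agilent's own ratios, which the deposited table repeats, at 0.94 in A2, 1.04 in A3, 1.12 in A14 and 0.92 in A15. The cause of these changes was not tested, beyond the smaller number of arrays where strains were left out. The member medians moved by less than the SD over members in all 6 alternatives, from -0.39 to -0.31 in A2 and from 0.28 to 0.41 in A10. That SD is a wide limit, since it is the spread of single genes. Without loess the A9 median rose to 0.21 and the A14 median changed sign. The 7 log2 ratios over WT2 leave out the spread of wild type, and no array was repeated.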
